A study of Mus musculus with 9 samples.

Results

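The enzymes described here modify and cross-link collagen: 4 genes of collagen prolyl 4-hydroxylase (the α subunits P4ha1, P4ha2 and P4ha3 and the β subunit P4hb), 3 lysyl hydroxylases (Plod1, Plod2 and Plod3) and 3 lysyl oxidases (Lox, Loxl1 and Loxl2). They were chosen by name as the hydroxylases that use 2-oxoglutarate (α-ketoglutarate) on collagen and the oxidases that act after them, and all 10 were found among the 24421 genes of the count table. RNA was sequenced from D3 mouse embryonic stem (ES) cells, grown without feeders on gelatin in serum medium with leukemia inhibitory factor. The 9 libraries form 3 groups of 3: VT, stably carrying the pCDH-control vector; LAMP2A, the same line overexpressing LAMP2A, the lysosomal receptor of chaperone-mediated autophagy; and LAMP2A+DM-αKG, the overexpressing cells after 72 h in 4 mM DM-αKG, an ester of α-ketoglutarate that enters cells. No vector cells given DM-αKG were analysed here, so each effect of the ester is an effect in LAMP2A cells. Whether replicates were separate cultures or clones is not stated, nor whether the overexpressing cells are 1 clone, so p-values measure the spread between these libraries, which may be technical.

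Collagen chains are hydroxylated in the endoplasmic reticulum while they are being made. Prolyl 4-hydroxylase, a tetramer of catalytic α subunits and protein disulfide isomerase (the product of P4hb), makes 4-hydroxyproline, which keeps the triple helix stable at body temperature. Lysyl hydroxylases convert lysines to hydroxylysine, and both enzyme types consume 2-oxoglutarate and oxygen and need iron and ascorbate. Lysyl oxidases use copper and not 2-oxoglutarate; they act outside the cell and oxidise lysine and hydroxylysine so that collagen and elastin cross-link. Collagen IV of basement membranes, which early embryonic cells make, is among their substrates, and several of these enzyme genes are textbook targets of hypoxia-inducible factor (HIF).

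Promoters of the 3 α subunit genes are shown because these paralogs share a catalytic role and yet moved differently with DM-αKG. The sequences are the 250 bases before the RefSeq transcript start (GRCm38.p6, the assembly of mm10), 5′ to 3′ on the strand of the gene. Capitals mark ACGTG or GCGTG, the core of the HIF response element, on either strand (as CACGT or CACGC on the opposite one); ACGTG is also part of the E-box CACGTG. The windows are chr10:59323046-59323295 (plus strand) for P4ha1, chr11:54100674-54100923 (plus strand) for P4ha2 and chr7:100285270-100285519 (plus strand) for P4ha3.
P4ha1: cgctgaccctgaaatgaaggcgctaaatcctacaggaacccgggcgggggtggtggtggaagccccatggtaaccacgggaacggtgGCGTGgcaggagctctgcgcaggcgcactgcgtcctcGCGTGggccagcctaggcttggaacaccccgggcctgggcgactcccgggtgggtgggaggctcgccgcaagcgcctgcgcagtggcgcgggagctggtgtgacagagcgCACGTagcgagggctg
P4ha2: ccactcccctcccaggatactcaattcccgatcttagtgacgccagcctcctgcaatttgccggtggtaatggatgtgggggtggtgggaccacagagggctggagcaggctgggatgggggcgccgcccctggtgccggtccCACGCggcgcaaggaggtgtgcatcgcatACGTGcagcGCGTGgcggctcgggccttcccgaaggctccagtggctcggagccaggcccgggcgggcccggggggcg
P4ha3: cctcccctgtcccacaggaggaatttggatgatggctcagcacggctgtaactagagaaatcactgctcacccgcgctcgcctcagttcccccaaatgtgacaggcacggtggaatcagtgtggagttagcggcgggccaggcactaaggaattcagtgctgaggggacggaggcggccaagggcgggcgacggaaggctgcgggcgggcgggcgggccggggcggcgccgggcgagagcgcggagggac
The P4ha2 window lies inside the GENCODE span of the gene but in no exon. The P4ha1 and P4ha2 windows each hold 1 ACGTG and 2 GCGTG, whereas the P4ha3 window holds neither. RefSeq windows were searched for 6 of the 10 genes, and not for Plod2, Lox, Loxl1 and Loxl2, so nothing is said of these. Of the 6 searched, 5 have at least 1 of the HIF cores (P4ha1, P4ha2, P4hb, Plod1 and Plod3). The share among all 32851 windows of that length was 38.6%. CATTCC, the core bound by TEAD factors, lies in none of the 6 on either strand (12.6% of all windows). These matches describe letters only, and the shares over all windows were not matched for G and C content. The windows are rich in G and C, 69.6% in P4ha1, 70.0% in P4ha2 and 67.2% in P4ha3.

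The libraries held 23636074 to 32809875 counted reads, and 14513 genes passed the filter on low counts. Levels are in CPM, the counts-per-million-reads unit, scaled with TMM factors of 0.989 to 1.01. Fold changes and adjusted p-values are from edgeR's quasi-likelihood test over all tested genes (Benjamini-Hochberg), and a gene passed under 0.05. Lamp2 stood at a mean of 58.1 CPM in VT and 404 in LAMP2A, but 97.2 in the libraries with DM-αKG; these counts sum all transcripts of the gene and do not separate the LAMP2A isoform. Levels of ES cell markers differed between the groups. For the marker counts given here, 43.0% of all tested genes were higher and 42.1% lower in LAMP2A than in VT. All 8 fixed ES cell markers were lower in LAMP2A, and their summed level was 7290.1 to 7709 CPM in VT, 1732 to 1736 in LAMP2A and 6250.4 to 6296 with DM-αKG. Of 12 extraembryonic endoderm markers 11 were higher in LAMP2A, with sums of 926 to 979, 4177 to 4220.4 and 1381 to 1439.9 CPM in the same order. Of 13 fibroblast and feeder markers 10 could be tested, of which 6 passed the filter only through LAMP2A and so had to be higher there; of the other 4, 3 were higher and 1 (Thy1) lower. Lum and Fap had no count in VT and Fap none in LAMP2A, and the sums, most of them Vim, were 362 to 383, 1143 to 1153.4 and 435 to 448 CPM. The Lamp2 and marker levels changed between the same groups as the enzyme genes below, the ES cell markers in the opposite direction. The part of these levels in the results was not tested. In bulk RNA a change in the mix of cells cannot be told apart from a change in RNA per cell.

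All 10 enzyme genes were higher in LAMP2A than in VT, and 9 of them were lower again with DM-αKG. The return was uneven. With DM-αKG, P4ha2 stayed at its LAMP2A level, P4ha1, P4hb, Plod2 and Loxl2 lay between LAMP2A and VT, P4ha3 and Plod3 fell most of the way but still passed above VT, and Plod1, Lox and Loxl1 did not pass against VT. Of all tested genes, 43.0% were higher and 42.1% lower in LAMP2A than in VT, and 41.1% were higher and 42.1% lower with DM-αKG than without. Against VT, LAMP2A+DM-αKG had 7 of the 10 higher and none lower, where 29.3% of all genes were higher and 29.3% lower. P4ha3 and Lox passed the filter only through the LAMP2A libraries, so they had to differ; of the other 8 genes, 8 were higher in LAMP2A, 7 lower with DM-αKG and 6 still higher than VT. Both contrasts use the same LAMP2A libraries, so the fall is not independent of the rise. At least 2-fold changes were found for 6 of the 10 in LAMP2A against VT (19.8% of all genes were that much higher), 3 lower with DM-αKG than without (17.6% of all genes) and 4 higher with DM-αKG than in VT (3.93% of all genes). Without P4ha3 and Lox, these counts were 4, 1 and 3 of 8 in the same order.

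**Figure D1:**
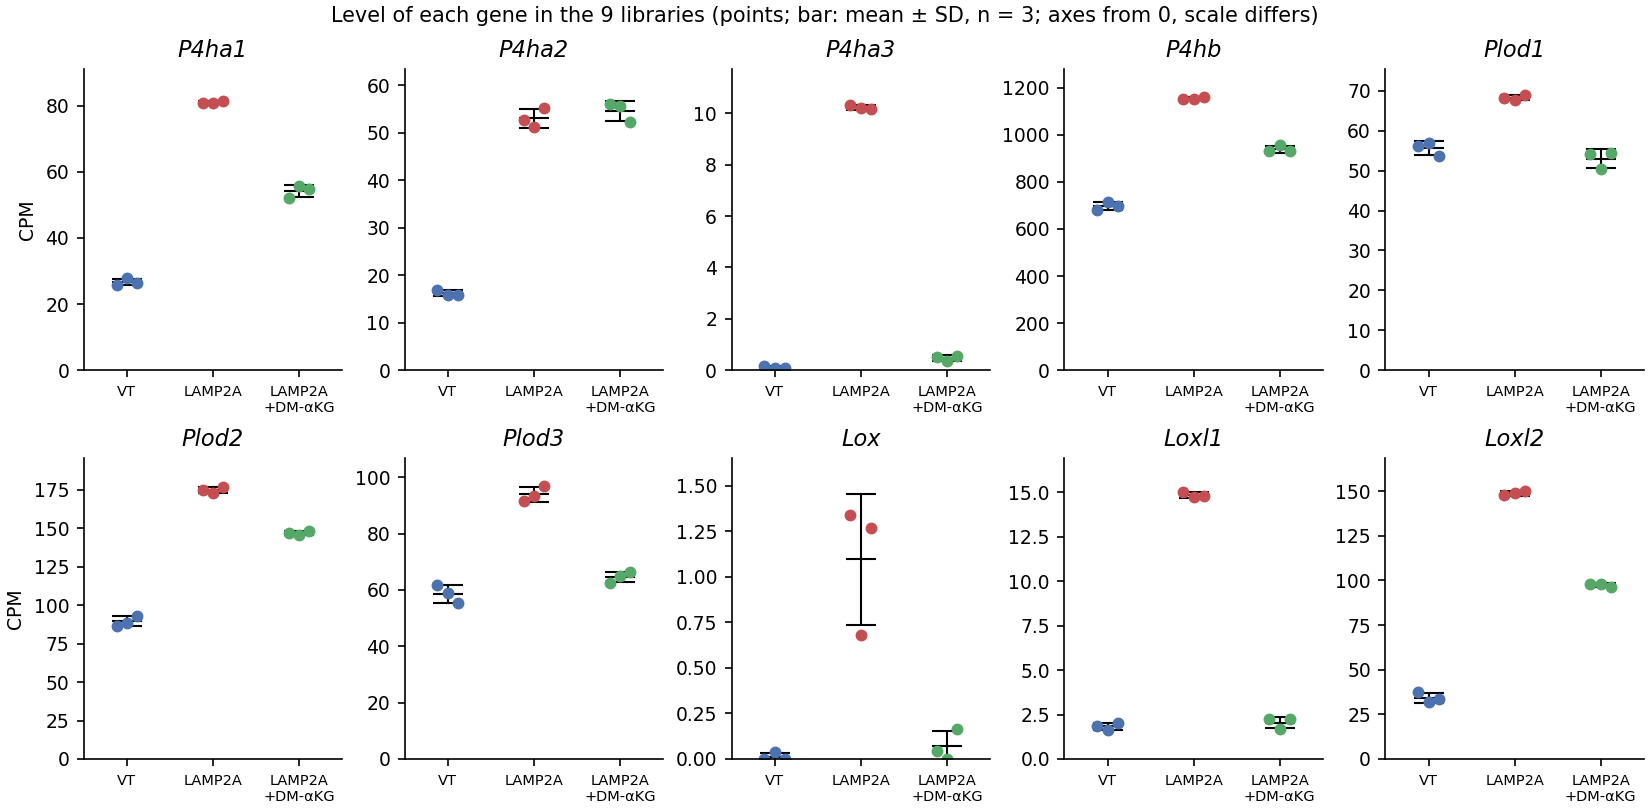
Level of each of the 10 genes in CPM (vertical axes start at 0 and differ in scale) in the 3 libraries of VT, LAMP2A and LAMP2A+DM-αKG; points are libraries and bars the mean ± SD (n = 3). In the P4ha2 panel the LAMP2A and LAMP2A+DM-αKG points overlap, and in the P4ha1 panel the treated points lie between those of VT and LAMP2A.

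P4ha1 encodes the most widely used α subunit of prolyl 4-hydroxylase (GRCm38 chromosome 10, 59323296 to 59373304, plus strand, 15 exons). Its level was 25.9, 27.8 and 26.3 CPM in the VT libraries, 80.8, 80.8 and 81.5 in LAMP2A, and 52.0, 55.6 and 54.9 with DM-αKG. The 3 groups did not overlap, and the treated libraries sat midway. The rise in LAMP2A was 3.04-fold (log2 fold change 1.60, SE 0.041, adjusted p = 4.21e-28), the fall with DM-αKG 1.49-fold (log2 fold change -0.58, SE 0.037, adjusted p = 2.49e-16), and the treated cells kept 2.03-fold the VT level (adjusted p = 3.28e-20).

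P4ha2, the second α subunit (chromosome 11, 54100095 to 54131665, plus strand, 16 exons), rose as much but did not come down. The VT libraries had 16.9, 15.8 and 15.9 CPM, the LAMP2A libraries 52.6, 51.3 and 55.2, and the LAMP2A+DM-αKG libraries 55.9, 55.5 and 52.2. The latter 2 groups overlap, and both lie above VT. P4ha2 was 3.27-fold higher in LAMP2A than in VT (log2 fold change 1.71, SE 0.050, adjusted p = 2.26e-26) and 3.37-fold higher with DM-αKG than in VT (log2 fold change 1.75, SE 0.051, adjusted p = 6.00e-25). Between the groups with and without DM-αKG the log2 fold change was 0.04 (SE 0.041, adjusted p = 0.367); in a fit limited to genes averaging 5 CPM or more it was -0.0091 (adjusted p = 0.839, range over the alternatives 0.135 to 0.839), so it has no settled sign. Among all tested genes, 98.6% had a lower log2 fold change between LAMP2A+DM-αKG and VT than P4ha2.

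P4ha3, the remaining α subunit, low in most adult tissues (chromosome 7, 100285520 to 100319699, plus strand, 13 exons), was nearly uncounted outside LAMP2A. It had 4, 2 and 2 counts in VT, 340, 329 and 272 in LAMP2A and 12, 9 and 17 with DM-αKG, or 0.165, 0.0739 and 0.0744 CPM, then 10.3, 10.2 and 10.2, then 0.505, 0.347 and 0.565. The groups do not overlap, and LAMP2A stands far above both others. From the summed counts LAMP2A was 100.2-fold higher than VT, with a 95% counting interval of 50.6 to 233 that covers counting error only. The edgeR fit gave 96.0-fold (adjusted p = 4.95e-26). With DM-αKG P4ha3 fell 21.3-fold (log2 fold change -4.41, SE 0.145, edgeR adjusted p = 8.44e-25). Its 38 counts against 8 in VT left a ratio of 4.66 (2.14 to 11.6), and the edgeR fit gave 4.50-fold (adjusted p = 1.16e-04). Of the 3 α subunit genes this one had the largest rise and the largest fall, but it passed the filter only through the LAMP2A libraries. Its rise and fall thus had to be found, and their adjusted p-values are no test of them.

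P4hb encodes protein disulfide isomerase, which holds the α subunits in solution and also folds other secreted proteins (chromosome 11, 120560298 to 120573253, minus strand, 11 exons). Its levels were 682, 714 and 699 CPM in VT, 1150.5, 1153 and 1159 in LAMP2A, and 931, 955 and 929 with DM-αKG. No groups overlapped and, as for P4ha1, the treated libraries lay between the others. P4hb rose 1.65-fold in LAMP2A (log2 fold change 0.73, SE 0.029, adjusted p = 1.81e-22), fell 1.23-fold with DM-αKG (adjusted p = 1.08e-11) and stayed 1.34-fold above VT (adjusted p = 7.77e-15).

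**Figure D2:**
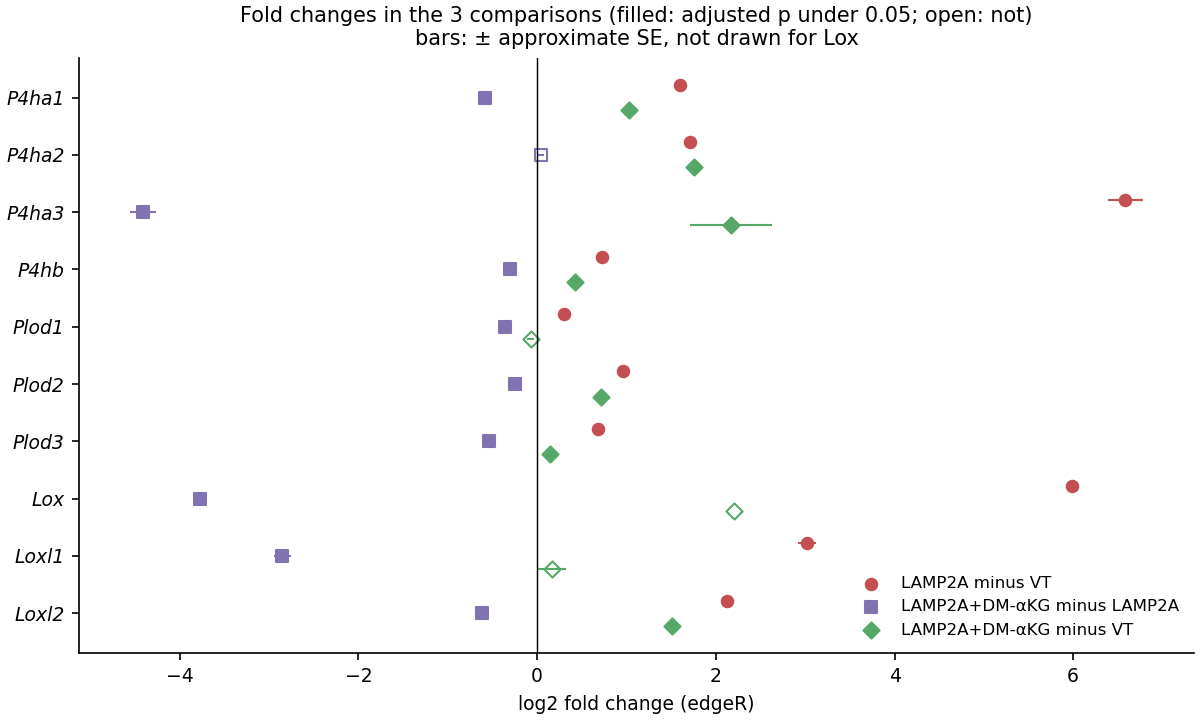
Log2 fold change of each gene (horizontal axis) in LAMP2A against VT, LAMP2A+DM-αKG against LAMP2A and LAMP2A+DM-αKG against VT; filled symbols passed an adjusted p of 0.05 in edgeR and bars are ± approximate SE, left out for Lox. The open square of P4ha2 sits at 0.04, while P4ha3, Lox and Loxl1 lie at -4.41, -3.78 and -2.85 in the DM-αKG contrast. P4ha3 and Lox passed the filter only through LAMP2A, so their rise and fall had to be found.

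To compare paralogs, CPM was divided by the length of the longest coding transcript in GENCODE M21. On this per kb scale P4hb was the most abundant of the 10 in every group, at 244 ± 5.60 CPM per kb in VT, 403 ± 1.64 in LAMP2A and 328 ± 5.11 with DM-αKG (SD, n = 3). The ratio of P4hb to the 3 α subunits together was 17.07, 17.98 and 18.04 in the VT libraries, 8.44, 8.58 and 8.29 in LAMP2A and 8.61, 8.69 and 8.81 with DM-αKG. Transcripts for the catalytic subunits thus rose more than those for their partner, and the ratio with DM-αKG lay close to that of LAMP2A and not to that of VT. P4ha1 made up 47.8 ± 1.83% of α subunit transcripts in VT, 41.9 ± 0.651% in LAMP2A and 35.6 ± 1.41% with DM-αKG. The share of P4ha2 was 51.9 ± 1.69%, 49.0 ± 0.871% and 63.9 ± 1.44%, and that of P4ha3 0.319 ± 0.156%, 9.07 ± 0.233% and 0.532 ± 0.137%. The treated cells therefore had the highest share of P4ha2.

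These shares depend on transcript length. With the union of all annotated exons, the P4ha2 shares were 28.5%, 27.0% and 39.6% and the P4ha1 shares 71.1%, 62.6% and 59.7%, so which of the pair is more abundant is not settled, while the order of the groups was the same. The ratio of P4hb to the α subunits was then 26.8, 12.8 and 14.9. With 3 libraries against 3, an exact two-sided permutation test cannot give a p below 0.1. That value was reached where groups did not overlap, which for these shares and the ratio was every comparison but that of the P4ha3 share between LAMP2A+DM-αKG and VT (exact p = 0.2). Over the 30 comparisons of shares and ratios made in the 3 families, that exact permutation p became 0.115 after Benjamini-Hochberg adjustment, so none passed.

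**Figure D3:**
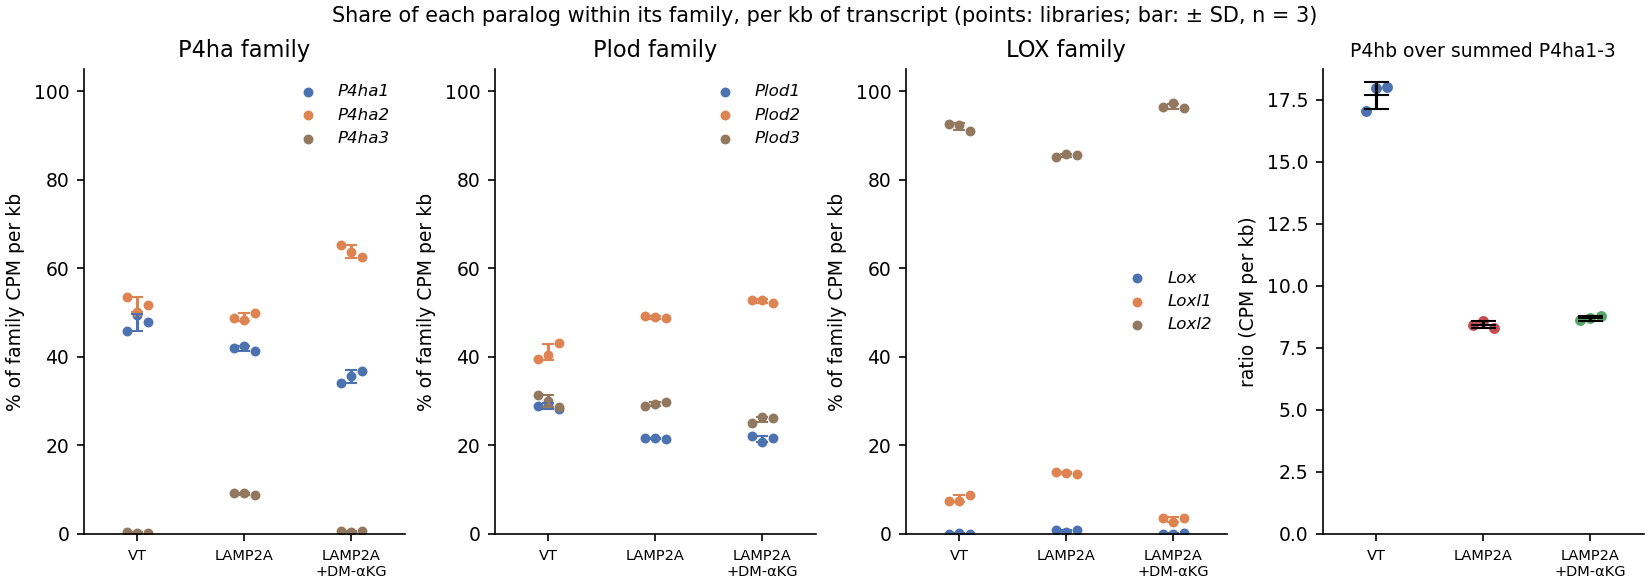
Share of each paralog in the summed CPM per kb of its family (percent, 3 panels) and ratio of P4hb to summed P4ha1, P4ha2 and P4ha3 (right panel); points are libraries and bars ± SD (n = 3). The P4hb ratio falls from a mean of 17.7 in VT to 8.44 in LAMP2A and 8.70 with DM-αKG, and P4ha2 takes its highest share, 63.9%, with DM-αKG.

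Among the lysyl hydroxylases the largest rise was that of Plod2, the enzyme that hydroxylates lysines of the collagen telopeptides (chromosome 9, 92542223 to 92608428, plus strand, 20 exons). It was counted at 86.7, 88.6 and 93.2 CPM in VT, 174.7, 173 and 177 in LAMP2A, and 147, 146 and 148 with DM-αKG. The treated libraries were nearer to LAMP2A than to VT, with no overlap of groups. Plod2 rose 1.95-fold (log2 fold change 0.97, SE 0.032, adjusted p = 1.23e-24), fell 1.19-fold with DM-αKG (log2 fold change -0.25, SE 0.031, adjusted p = 4.29e-09) and remained 1.64-fold above VT (adjusted p = 2.62e-19).

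Plod3, which also carries glycosyltransferase activity on hydroxylysine, went back further (chromosome 5, 136987019 to 136996648, plus strand, 19 exons). Its levels were 61.6, 58.8 and 55.3 CPM in VT, 91.5, 93.4 and 96.8 in LAMP2A, and 62.5, 64.9 and 66.3 with DM-αKG. The rise was 1.60-fold (log2 fold change 0.68, SE 0.039, adjusted p = 8.32e-18) and the fall 1.45-fold (adjusted p = 5.13e-15), and the treated cells were 1.10-fold above VT (log2 fold change 0.14, SE 0.041, adjusted p = 0.00291). Only a narrow gap separated the treated from the VT libraries.

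Plod1, the enzyme for lysines within the triple helix (chromosome 4, 147909753 to 147936767, minus strand, 19 exons), rose least. It had 56.2, 57.0 and 53.8 CPM in VT, 68.3, 67.7 and 68.9 in LAMP2A, and 54.3, 50.4 and 54.4 with DM-αKG. It rose 1.23-fold (log2 fold change 0.29, SE 0.038, adjusted p = 1.14e-08) and fell 1.29-fold with DM-αKG (adjusted p = 1.20e-10). Treated and VT libraries overlapped, at a log2 fold change of -0.07 (SE 0.040, adjusted p = 0.133). Per kb, Plod2 was the largest of the 3 in every group, with 41.1 ± 1.87% of lysyl hydroxylase transcripts in VT, 49.0 ± 0.316% in LAMP2A and 52.7 ± 0.409% with DM-αKG. Plod1 had 28.9%, 21.6% and 21.5%, and Plod3 30.03%, 29.4% and 25.9%.

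The lysyl oxidases changed by larger factors. Loxl2, a family member with scavenger receptor domains, cross-links collagen IV (chromosome 14, 69609068 to 69695834, plus strand, 14 exons). It made up nearly all of the 3 genes' transcripts. It stood at 37.4, 32.1 and 33.4 CPM in VT, 148, 149 and 150.2 in LAMP2A, and 98.0, 98.1 and 96.1 with DM-αKG. The 3 groups were well apart. It rose 4.35-fold in LAMP2A (log2 fold change 2.12, SE 0.040, adjusted p = 4.61e-32), fell 1.53-fold with DM-αKG (log2 fold change -0.61, SE 0.035, adjusted p = 1.53e-17) and was still 2.85-fold above VT (log2 fold change 1.51, SE 0.042, adjusted p = 2.39e-25).

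Loxl1, which is needed for elastic fibres (chromosome 9, 58287738 to 58313186, minus strand, 7 exons), rose and came back. Its levels were 1.85, 1.63 and 2.01 CPM in VT, 15.0, 14.7 and 14.8 in LAMP2A, and 2.23, 1.69 and 2.23 with DM-αKG. Only the LAMP2A libraries stood apart. The rise was 8.11-fold (log2 fold change 3.02, SE 0.099, adjusted p = 7.85e-25), the fall 7.22-fold (log2 fold change -2.85, SE 0.096, adjusted p = 1.94e-24), and the remaining log2 fold change against VT was 0.17 (SE 0.160, adjusted p = 0.384). Loxl1 and Loxl2 thus had like directions but unlike returns: the Loxl2 share of the 3 genes per kb was 92.0 ± 0.775% in VT, 85.5 ± 0.346% in LAMP2A and 96.6 ± 0.572% with DM-αKG, and the Loxl1 share 7.93 ± 0.801%, 13.8 ± 0.183% and 3.28 ± 0.497%.

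Lox, the founding member of the family, was barely counted at this depth. It had 0, 1 and 0 counts in VT, 44, 22 and 34 in LAMP2A, and 1, 0 and 5 with DM-αKG. LAMP2A was the highest group, and the other groups overlapped. Lox passed the filter only through the LAMP2A libraries, so the adjusted p-values of its rise and fall are no test of them. The ratio of LAMP2A to VT from summed counts was 85.2, with a counting interval of 14.9 to 3397, and it rests on the single read of VT replicate 2. In the edgeR fit the log2 fold change was 5.98 (adjusted p = 6.22e-10), and 7.93 without that library. The ratio of LAMP2A to LAMP2A+DM-αKG was 14.5 (6.42 to 40.4). For the fall, the edgeR log2 fold change was -3.78 (adjusted p = 1.07e-08). It was -5.47 without LAMP2A+DM-αKG replicate 3, which holds 5 of the 6 treated counts. Against VT, LAMP2A+DM-αKG had a ratio of 5.88 (0.714 to 270.6). The edgeR log2 fold change was 2.20 (adjusted p = 0.150), a difference not detectable at this depth.

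Some of these genes overlap other annotated genes, and the strand setting of the counting is not given in the sources used here. In GENCODE M21, Plod2 overlaps Gm38391 and Plod3 overlaps Znhit1, both on the opposite strand, Loxl2 overlaps the antisense gene Gm27177 and Lox an antisense gene, while the 4 prolyl 4-hydroxylase genes, Plod1 and Loxl1 overlap none. In the authors' deposited table of LAMP2A against VT all 10 genes are higher at an adjusted p under 0.05, and in their table of LAMP2A+DM-αKG against LAMP2A 9 are lower. Apart from P4ha3 and Lox, the log2 fold changes in the authors' deposited tables differ from those given here by at most 0.00681.

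Collagen chain genes, which encode the enzymes' substrates, rose in LAMP2A and fell with DM-αKG. Of 19 such genes 17 could be tested, but 8 of these (Col12a1, Col14a1, Col1a2, Col3a1, Col5a2, Col6a1, Col6a2 and Col8a1) passed the filter only through the LAMP2A libraries, so they had to be higher there and lower in the treated cells. The other 9 were all higher in LAMP2A (43.0% of all genes) and all lower with DM-αKG (42.1% of all genes), with median log2 fold changes of 2.77 and -2.34, against 0.0081 and -0.0012 over all genes. The 8 enzyme genes other than P4ha3 and Lox had medians of 1.28 and -0.45. Against VT, the treated cells had 5 of the 9 collagen genes higher, 2 lower and 2 that did not pass (29.3% of all genes were higher and 29.3% lower), with a median of 0.32, and 6 of the 8 enzyme genes higher, with a median of 0.57. Among the 4 collagen genes named by rank of p, Col4a1 and Col4a2 (collagen IV) and Col18a1 belong to basement membranes. Col4a1 had means of 161, 983 and 345 CPM in the order VT, LAMP2A, LAMP2A+DM-αKG, and in that order Col4a2 had 67.3, 587 and 151 and Col18a1 202, 1377 and 153. The fourth, Col12a1, a collagen associated with fibrils, was almost uncounted outside LAMP2A (0.0274, 100.1 and 0.107 CPM). In the treated cells Col4a1 and Col4a2 stayed above VT (log2 fold changes 1.10 and 1.17), and Col18a1 fell below it (-0.39). LAMP2A+DM-αKG replicate 1 held most of the treated counts of some collagens that mark fibroblasts: Col3a1 had 42, 2 and 1 counts in the treated libraries and Col1a2 16, 1 and 0. Without that library the counts against VT were the same over the 9 genes, and their median was 0.38; the enzyme genes had the same counts too.

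Other proteins that modify, chaperone or trim collagen followed in part. In a list of 24 such genes 17 were higher and 6 lower in LAMP2A (43.0% and 42.1% of all genes), and 6 were higher and 15 lower with DM-αKG (41.1% and 42.1% of all genes). P3h2 and Colgalt2 among them passed the filter only through LAMP2A, and without these the counts were 15 and 6, then 6 and 13, of 22. Serpinh1, the collagen chaperone HSP47, went from 176 CPM to 1622 and back to 202 (log2 fold changes 3.21 and -3.005), and Bmp1, the protease that removes the C-propeptide, from 5.17 to 80.2 and 6.93 (3.95 and -3.53). Fkbp10, a prolyl isomerase for collagen, and P3h4, a partner in lysyl hydroxylation, rose by log2 fold changes of 2.22 and 2.35 and fell by 2.11 and 1.97 on the log2 scale. Against VT, 12 of the 24 were higher, 5 lower and 7 did not pass (29.3% of all genes were higher and 29.3% lower), and the median log2 fold change was 0.18. Without P3h2 and Colgalt2, 11 of 22 were higher, 5 lower and 6 did not pass.

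Close relatives of the members had patterns of their own. The other lysyl oxidases Loxl3 and Loxl4 rose in LAMP2A (log2 fold changes 1.39 and 2.65) and fell with DM-αKG (-1.60 and -1.92), Loxl3 returning to 2.35 CPM against 2.74 in VT and Loxl4 to 1.42 against 0.853. P4htm, a membrane-bound prolyl hydroxylase not known for acting on collagen, went the other way, from 6.01 CPM in VT to 5.07 in LAMP2A (log2 fold change -0.24, adjusted p = 0.0258) and 9.32 with DM-αKG (log2 fold change 0.88 against LAMP2A). The prolyl 3-hydroxylases, which also use 2-oxoglutarate, were picked after their values were seen. P3h1 rose slightly (log2 fold change 0.22) and did not pass with DM-αKG (0.05, adjusted p = 0.216), whereas P3h2 went from 0.140 CPM to 15.1 and 0.316 and P3h3 from 5.14 to 16.4 and 7.53. Like P4ha3, P3h2 passed the filter only through LAMP2A and so had to fall.

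The list of the disulfide isomerase family and endoplasmic reticulum folding, to which P4hb is functionally related, had 13 of 16 genes higher and 2 lower in LAMP2A (43.0% and 42.1% of all genes). With DM-αKG 8 rose and 8 fell, near the shares of all genes (41.1% and 42.1%). Against VT 15 were higher and none lower (29.3% and 29.3% of all genes), with a median log2 fold change of 0.32. Pdia3 and Txndc5, thiol oxidoreductases like P4hb, had 797, 1246 and 894 CPM and 188, 357 and 233 CPM over the same groups, the same order of groups as P4hb. Pdia6 had 604, 919.9 and 860.3 CPM, and Pdia5 27.9, 76.2 and 39.8. These genes were named by rank of p in LAMP2A against VT. All of them are among the 8 that fell with DM-αKG, and the 8 that rose are not named.

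HIF targets were split in LAMP2A about as all genes were, and most were higher with DM-αKG. Of 20 listed targets outside the enzyme set, 9 were higher and 9 lower in LAMP2A (43.0% and 42.1% of all genes), with a median log2 fold change of 0.06. With DM-αKG 16 were higher and 2 lower (41.1% and 42.1% of all genes), with a median of 0.97. In treated cells 16 were higher and none lower than in VT (29.3% and 29.3% of all genes), with a median of 1.07. Pdk1 had 329.6, 135 and 325 CPM in the order VT, LAMP2A, LAMP2A+DM-αKG, and Hk2 had 732, 299.6 and 744. Slc2a1, the glucose transporter GLUT1, had 622, 1204 and 1360.0 CPM and thus, like P4ha2, was high in both LAMP2A groups. Ddit4 had 36.9, 113 and 88.5 CPM, the order seen for P4ha1, Plod2 and Loxl2.

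**Figure D4:**
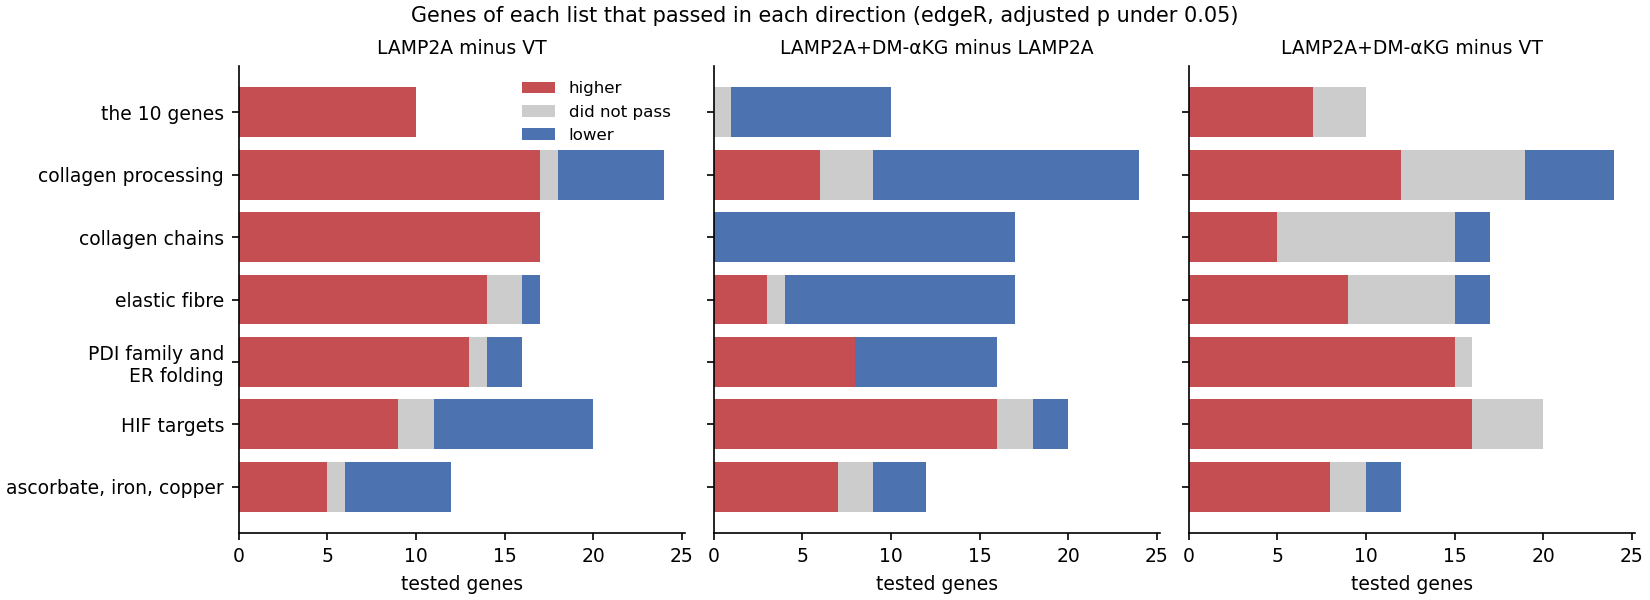
Number of tested genes (horizontal axis) that were higher (red), lower (blue) or did not pass (grey) in each comparison, for the 10 enzyme genes and 6 fixed lists (edgeR, adjusted p under 0.05). The 17 collagen chain genes, 8 of which passed the filter only through LAMP2A, are all red in LAMP2A against VT and all blue in LAMP2A+DM-αKG against LAMP2A, and HIF targets are mostly red (16 of 20) in both comparisons with DM-αKG. P4ha3, Lox, P3h2, Colgalt2, Mfap2 and Slc23a1 in the other bars also passed the filter only through LAMP2A. Of all tested genes, 43.0% were higher in LAMP2A than in VT. In LAMP2A+DM-αKG 41.1% were higher and 42.1% lower than in LAMP2A, and 29.3% were higher than in VT.

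Genes with the most similar pattern were sought among 10351 others averaging 5 CPM or more, by the distance between the 3 group means of log2 CPM after centring; this is a description over 3 groups. Nearest to P4ha1 was Vcan, the matrix proteoglycan versican (distance 0.042, log2 fold changes 1.55 and -0.57), and nearest to P4ha2 was the lipoprotein receptor gene Vldlr (0.130, log2 fold changes 1.81 and 0.13). The chemokine gene Cxcl12 and the receptor gene Ror1 were nearest to P4ha3 (0.067 and 0.147), and the laminin gene Lamb1 and the caldesmon gene Cald1 to Loxl1 (0.081 and 0.087). For Loxl2 they were Kif21a and Prph (0.023 and 0.082), for Plod2 Acot2 and Slc25a4 (0.0025 and 0.0096) and for Plod3 Alg2 and Lims1 (0.0014 and 0.0073). P4ha2 had a more distant nearest gene than any other of the 10.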

How the data were processed

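Raw read counts by gene symbol were deposited for the 9 libraries; the submitters' processing notes name STAR 2.7.1, HTSeq 0.11.2 and mm10, and the labels' protocols a stranded mRNA kit. No source used here states the annotation or strand setting. The authors' deposited DESeq2 tables hold, per the file headers, a mean signal (normalized counts), log2 fold changes, a test score and p-values; they served only for comparison. All genes were fitted together (R 4.3.3, edgeR 4.0.16: filterByExpr, TMM, estimateDisp, robust glmQLFit, glmQLFTest), with 3 group means, leaving 6 residual degrees of freedom. The method was tested on simulated data in which few genes changed. Most genes passed in the real data, a setting which that simulation does not cover. Each SE was taken as |log2 fold change| divided by √F. Replicates varied little (common biological coefficient of variation 2.74%), so small changes passed too. Pairs of libraries within a group had a chi-square/df of 1.19 to 5.66, and no libraries were merged. The members and lists were chosen with earlier results of these data known. By rule, all members could be named, with Loxl3, Loxl4, P4htm, Lamp2, Pou5f1 and the 2 nearest genes per member. Each list could add up to 4 genes by p averaging 5 CPM or more. Not all of these are named above. Alternatives were DESeq2 1.42.0, other scalings and filters, fits of 6 libraries, a replicate block, leave-one-out and a 2-fold minimum; transcript length as the union of exons and list counts without LAMP2A+DM-αKG replicate 1 were chosen after seeing the data. Locations and lengths come from GENCODE M21 (GRCm38), promoters from RefSeq.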

Additional observations from a re-analysis of the deposited data

How the results depend on the processing

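Of the alternative log2 fold changes of the enzyme genes, 471 kept their direction and their side of the threshold and 1 reversed: P4ha2 between LAMP2A+DM-αKG and LAMP2A, at -0.0091 (adjusted p = 0.839, edgeR) in the fit of genes averaging 5 CPM or more. A minimum of 2-fold left 4271, 3723 and 951 genes called in LAMP2A against VT, LAMP2A+DM-αKG against LAMP2A and LAMP2A+DM-αKG against VT (from 12355, 12081 and 8517), with 6 enzyme genes higher in the first, 3 lower in the second and 4 higher in the third. Without P4ha3 and Lox these were 4, 1 and 3 of 8 enzyme genes. Shares over all tested genes in the same directions were 19.8%, 17.6% and 3.93%. Under the other alternatives the enzyme counts changed only where P4ha3 or Lox was not tested. Leaving out 1 library at a time gave 12107 to 12440.0, 11750.0 to 12372 and 7739 to 8371 genes called. The replicate block gave 12341, 12065 and 8462 genes called, and same-numbered libraries did not deviate together (correlations -0.0266 to 0.0117 over 9 pairs), so the numbers do not pair them. Depth limits Lox and, in VT, P4ha3. Transcript length as the union of exons moved 21 of the 30 group means of shares and ratios by over 1 SD.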

Other observations

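Genes for elastic fibres, which lysyl oxidases also cross-link, had 14 of 17 members higher and 1 lower in LAMP2A (43.0% and 42.1% of all tested genes), and 3 higher and 13 lower with DM-αKG (41.1% and 42.1%); 1 of them, Mfap2, passed the filter on low counts only through LAMP2A. Fbn2, fibrillin 2, went from 1.46 CPM in VT to 69.7 in LAMP2A and 4.30 in LAMP2A+DM-αKG, and Fbln1, Ltbp1 and Efemp2 rose by log2 fold changes of 2.40, 1.84 and 2.41. Elastin itself (Eln), chosen after its values were seen, was counted at 0.439, 0.375 and 0.411 CPM and did not pass in any comparison.

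Of 12 genes that handle the enzymes' cofactors ascorbate, iron and copper, 5 were higher and 6 lower in LAMP2A, near the 43.0% and 42.1% of all tested genes, and 7 were higher and 3 lower with DM-αKG (41.1% and 42.1% of all tested genes). Slc23a1, an ascorbate transporter gene, passed the filter only through LAMP2A. Slc40a1, the iron exporter ferroportin, went from 0.461 to 21.4 and 0.845 CPM, and Tfrc, the transferrin receptor for iron uptake, from 721 to 460.3 and 934. Atp7a, which loads copper onto secreted enzymes such as lysyl oxidases, had 36.4, 68.6 and 42.7 CPM (log2 fold changes 0.92 and -0.68), and Slc2a3, a glucose transporter that also carries dehydroascorbate, had 2684, 4049 and 3900.2.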
